A study of Mus musculus with 14 samples.

Results

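Metallothioneins and the genes that move, store and release iron were followed in the aged brain of a mouse model of Alzheimer's disease. The 10 genes were chosen by name, as Mt1, Mt2, Mt3, Fth1, Ftl1, Tfrc, Trf, Slc11a2, Cp and Slc40a1, from the 43346 rows of the gene count table. All 10 were found and all 10 passed the filter on low counts in every comparison. RNA was sequenced from a brain slice with hippocampus and cortex of 14 female mice, each 23 months old, in 3 groups on a mixed C57BL/6;SJL-Tg background. The NTG group held 4 non-transgenic littermates, labelled non-treated like the vehicle group. By the treatment protocol, mice of both genotypes that got no CP2 drank water with 0.1% PEG from 9 months of age. The vehicle group held 5 APP/PS1 mice, double transgenic for APP and PS1 with familial Alzheimer's disease mutations (genotype APP/PS1 +/+). The CP2 group held 5 APP/PS1 mice given CP2, a small molecule studied as a weak inhibitor of mitochondrial complex I, at 25 mg/kg/day in drinking water with 0.1% PEG from 9 months of age. The promoters that drive the transgenes are not given in the sources used here, and NTG mice given CP2 were not analysed here. Where CP2 is not named, APP/PS1 mice are those of the vehicle group.

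Metallothioneins are small cysteine-rich proteins that bind zinc and copper. Mt1 and Mt2 are induced by metals, glucocorticoids and inflammatory signals, by metals through the transcription factor MTF1, which binds metal response elements in their promoters, while Mt3 is the form enriched in brain. Iron reaches cells bound to transferrin (Trf), which is taken up by the transferrin receptor (Tfrc). It leaves the endosome through the metal transporter DMT1 (Slc11a2), is stored in ferritin, a shell of heavy (Fth1) and light (Ftl1) chains, and leaves the cell through ferroportin (Slc40a1) after oxidation by ferroxidases such as ceruloplasmin (Cp). Iron regulatory proteins bind hairpins in the messages of several of these genes, the iron responsive elements, and set their translation or stability. In brain, transferrin is made mainly by oligodendrocytes and choroid plexus, and ceruloplasmin by astrocytes.

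The promoters of the 3 metallothioneins lie side by side on chromosome 8 and are shown because the results turn on Mt1 and Mt2. Each line runs from 250 bases before to 50 bases after the RefSeq start of the gene (build GRCm38.p6, plus strand), in lower case with the metal response element core, TGCACNC or TGCGCNC on either strand, in capitals. The windows are chr8:94178839-94179138 for Mt1, chr8:94172368-94172667 for Mt2 and chr8:94152357-94152656 for Mt3.
Mt1: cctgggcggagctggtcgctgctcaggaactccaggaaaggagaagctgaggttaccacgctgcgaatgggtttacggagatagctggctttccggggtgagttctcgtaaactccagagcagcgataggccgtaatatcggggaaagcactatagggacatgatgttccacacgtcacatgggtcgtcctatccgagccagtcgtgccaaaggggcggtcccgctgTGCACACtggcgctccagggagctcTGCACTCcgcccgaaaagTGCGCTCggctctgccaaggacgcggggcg
Mt2: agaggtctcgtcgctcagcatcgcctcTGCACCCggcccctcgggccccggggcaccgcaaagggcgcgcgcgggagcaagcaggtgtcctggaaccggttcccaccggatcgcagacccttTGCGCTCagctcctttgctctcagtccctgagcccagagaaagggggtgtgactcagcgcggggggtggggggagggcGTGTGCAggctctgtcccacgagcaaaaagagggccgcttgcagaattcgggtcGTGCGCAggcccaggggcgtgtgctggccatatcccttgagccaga
Mt3: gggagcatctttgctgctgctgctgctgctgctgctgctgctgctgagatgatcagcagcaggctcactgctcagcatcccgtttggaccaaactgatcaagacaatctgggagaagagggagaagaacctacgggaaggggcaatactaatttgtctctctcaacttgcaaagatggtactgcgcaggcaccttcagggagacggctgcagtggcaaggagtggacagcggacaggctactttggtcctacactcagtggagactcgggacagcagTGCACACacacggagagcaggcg
In its window Mt1 held 3 cores, which began 23 bases before the start and at positions 3 and 21 counted from the start as 1. Mt2 held 4, beginning 223, 128 and 50 bases before the start and at position 5 after it. Mt3 held 1, at position 28. Of 32817 RefSeq promoter windows of the same length, 25.7% held at least 1 core, 1.97% at least 3 and 0.518% at least 4. The antioxidant response element core TGACNNNGC was found once, in Mt2, 79 bases before the start, and in 12.4% of all windows. Of the other members, Fth1, Ftl1, Cp and Tfrc had a promoter in the RefSeq table. Tfrc held 2 metal response element cores, which overlapped each other, in 1 of its 2 windows, and Fth1, Ftl1 and Cp held none. These are matches of letters and were not tested as binding sites. Bases outside the windows were not searched, and each metallothionein was read at 1 RefSeq start. The counts are thus not those of whole promoters, and do not rank the genes by their cores.

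**Figure D1:**
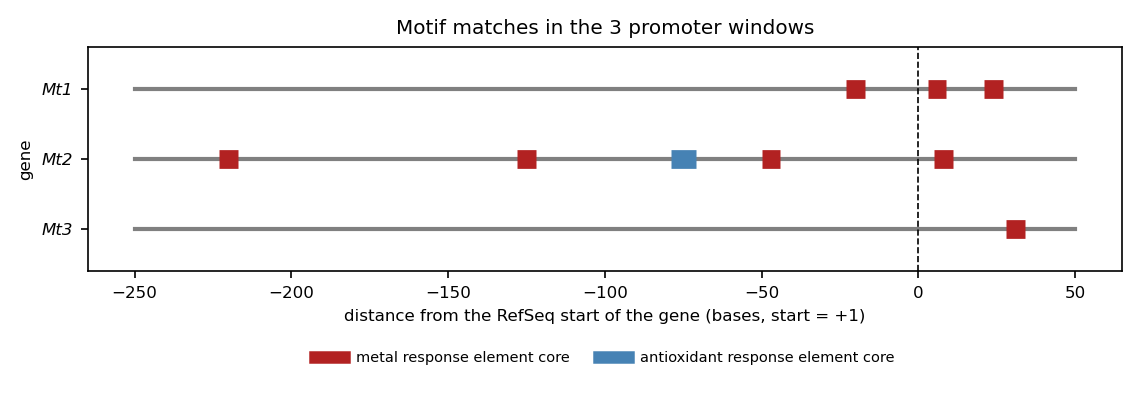
Positions of motif matches in the promoter windows of Mt1, Mt2 and Mt3, with the distance from the RefSeq start in bases on the x axis and 1 line per gene. Red blocks are metal response element cores, 3 in Mt1, 4 in Mt2 and 1 in Mt3, and the blue block is the antioxidant response element core of Mt2.

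The iron responsive elements are shown because, of the members that hold any, Fth1, Ftl1 and Slc40a1 have 1 before the coding region and Tfrc has its elements after it. They were found in GENCODE M21 transcripts (GRCm38) as C, 5 bases, the loop CAGTGN, with N not G, and 5 bases that pair with the 5 before the loop. Of the transcripts with that UTR, 4 of 5 held the element for Fth1, 1 of 2 for Ftl1, 1 of 4 for Slc40a1 and 1 of 2 for Tfrc. The 6 loop bases are in capitals.
Fth1, 5′ UTR, chr19:9982738-9982754, plus strand: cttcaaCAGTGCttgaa
Ftl1, 5′ UTR, chr7:45459785-45459801, minus strand: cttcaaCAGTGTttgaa
Slc40a1, 5′ UTR, chr1:45925471-45925487, minus strand: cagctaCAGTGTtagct
Tfrc, 3′ UTR, chr16:32631225-32631241, plus strand: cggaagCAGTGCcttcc
Tfrc, 3′ UTR, chr16:32631604-32631620, plus strand: cgggagCAGTGTcttcc
Tfrc, 3′ UTR, chr16:32631669-32631685, plus strand: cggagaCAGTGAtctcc
Tfrc, 3′ UTR, chr16:32631716-32631732, plus strand: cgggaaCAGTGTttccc
The elements of Fth1 and Ftl1 differed only in the last loop base, and Tfrc held 4 in a row in its 3′ UTR. Such an element was found in the 5′ UTR of 23 of 20899 genes (0.11%) and in the 3′ UTR of 100 of 21685 genes (0.461%). Slc11a2, Mt1, Mt2, Mt3, Trf and Cp held none by this strict pattern, which allows no mismatch or bulge.

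Total counts were 70548781 to 106235625 per mouse, with medians of 84626964 in NTG, 86825243 in vehicle and 86141743 in CP2 mice. Levels are given as the counts of a gene per 1000000 counts of its library (CPM) after scaling by edgeR's trimmed mean of M values, and mice are listed in the order of their numbers, 7 to 10 in NTG, 16 to 20 in vehicle and 21 to 25 in CP2. Per length, in the RPKM values of the deposited table, Fth1 was the highest member, with group means of 1160 in NTG and 1469 in vehicle mice, and Slc40a1 the lowest, with means of 0.883 to 0.988. Mt3 (mean RPKM 325 in NTG), Mt1 (213) and Mt2 (98.3) followed Fth1, then Trf (84.3), Ftl1 (49.8), Tfrc (12.2), Slc11a2 (5.18) and Cp (1.74). In NTG mice the RPKM ranges of Mt2 (86.2 to 109) and Trf (74.7 to 105) overlapped. In vehicle mice the ranges of Mt1 (324 to 392) and Mt3 (343 to 397) also overlapped. Mt4, the metallothionein of squamous epithelium, had 0 to 2 counts per mouse.

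Mouse 16 stood apart from the other vehicle mice. Its 9 striatal markers summed to 2541 CPM, against at most 396 in any other mouse, and its 8 thalamic markers summed to 183 CPM, the lowest of all. Its 12 oligodendrocyte markers also had the lowest sum of all mice, 5132 CPM, where the others had 5681 to 8166. The 10 markers of hippocampus and cortex summed to 416 to 565 CPM over all mice and none was at 0. Mouse 16 had the lowest Mt2, Mt3, Fth1, Tfrc, Trf and Cp and the highest Ftl1 of the vehicle mice. The part of the dissected region in these levels was not tested.

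APP/PS1 mice had more Mt1 and Mt2 RNA than NTG mice, by 1.59-fold and 1.82-fold, and more Cp RNA. In bulk tissue a change in the number of cells of a type and a change in RNA per cell cannot be told apart. By edgeR's quasi-likelihood test with Benjamini-Hochberg adjustment over 16417 genes, 3 of the 10 members were higher at an adjusted p under 0.05 and none was lower, where 5.68% of all genes tested passed and 4.34% passed as higher. At an unadjusted p under 0.05, 7 members were higher (18.7% of all genes in either direction and 10.6% as higher). The groups did not overlap for 4 members, all higher, as for 5.93% of all genes. In the 9 fits without 1 mouse, 2 to 6 members passed. The 6 were called without mouse 16, all as higher, namely Mt1, Mt2, Fth1, Tfrc, Trf and Cp. The median log2 fold change was 0.40 over the members and -0.0042 over all genes tested. The CP2 and vehicle groups were then compared. No member passed at an adjusted p under 0.05, where 1 gene of 16407 did (0.00609%), but Mt1 and Mt2 were lower in every CP2 mouse than in every vehicle one. Of all genes, 1.14% did not overlap between these groups, 0.591% with CP2 lower. Mt1, Mt2 and Mt3 were lower at an unadjusted p under 0.05, which 6.55% of genes reached, 3.66% as lower, and the median log2 fold change of the members was -0.15 against -0.0060 over all genes. In CP2 against NTG mice, 3 of 10 members were higher at an adjusted p under 0.05, namely Mt2, Tfrc and Trf, where 6.02% of 16416 genes passed and 4.56% passed as higher. The groups did not overlap for Mt2, Tfrc, Trf and Slc11a2, all higher, where 9.61% of all genes did not overlap and 6.00% were higher. The 3 comparisons share mice, so their values are given side by side and are not independent of each other.

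**Figure D2:**
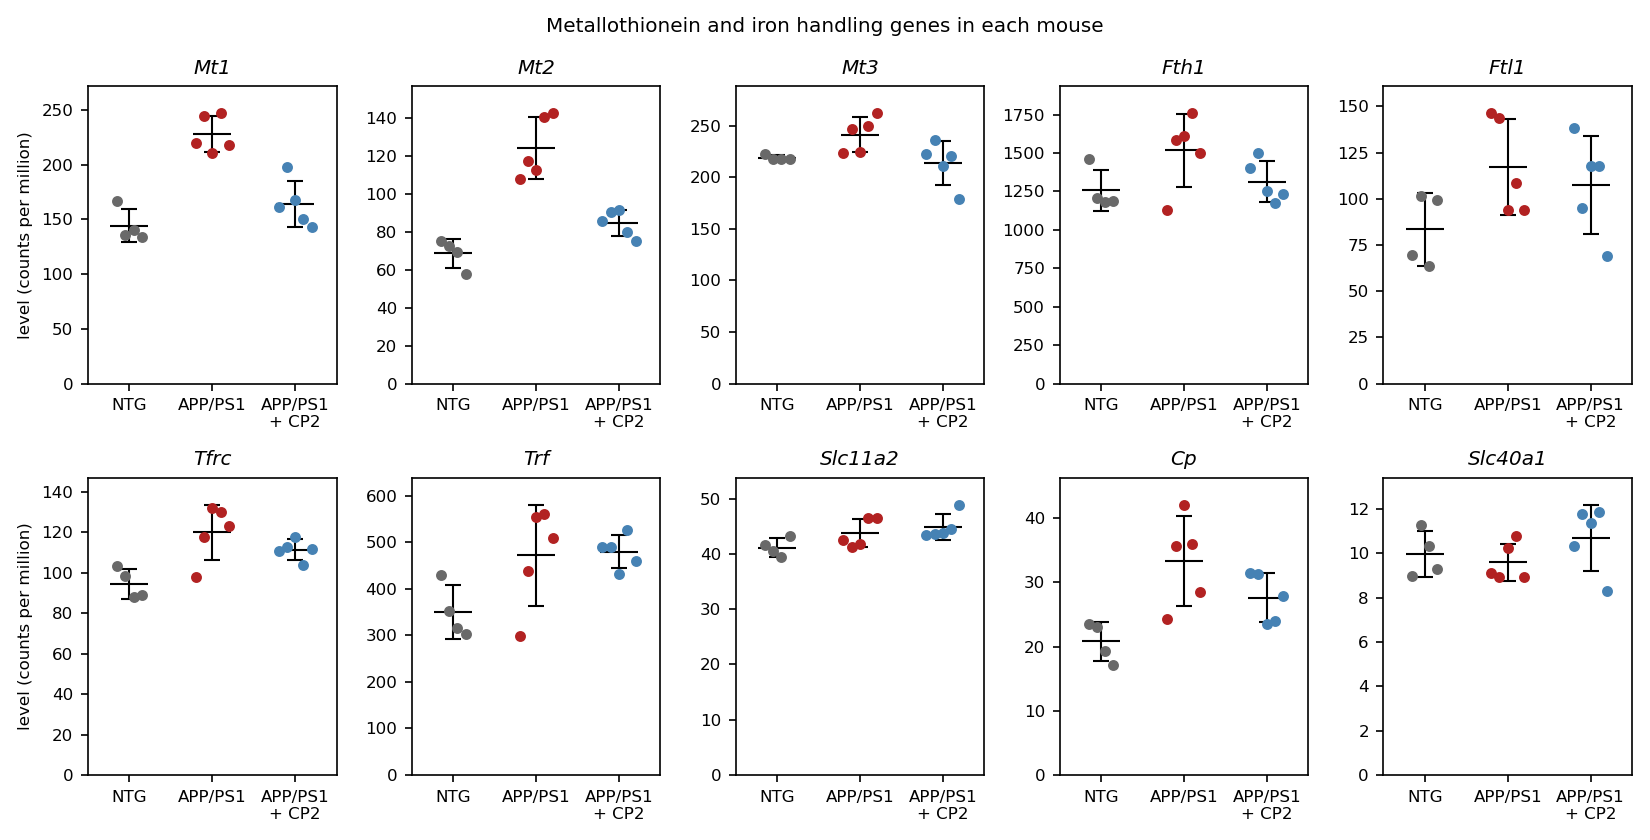
Level of the 10 genes in each mouse, in CPM on the y axis, with the groups on the x axis. Each point is 1 mouse (4 NTG, 5 vehicle, 5 CP2), bars are the mean and SD, and every y axis starts at 0. For Mt1 and Mt2 the vehicle mice stand above all mice of both other groups.

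Mt1 (ENSMUSG00000031765, chr8:94179089-94180325, plus strand) had 167, 136, 140 and 134 CPM in the NTG mice. It had 219, 245, 211, 247 and 218 CPM in the vehicle mice and 162, 198, 168, 151 and 143 CPM in the CP2 mice. The vehicle mice were all above every other mouse, and the CP2 and NTG mice overlapped. Group means were 144 ± 15.2 (SD, n = 4), 228 ± 16.7 (SD, n = 5) and 164 ± 21.1 (SD, n = 5). The log2 difference between APP/PS1 and NTG mice was 0.67 ± 0.081 (SE), with an adjusted p of 0.0011 by edgeR's quasi-likelihood test. Between the CP2 and vehicle groups the log2 difference was -0.47 ± 0.085 (SE), with a 95% interval of -0.66 to -0.29 and an edgeR adjusted p of 0.529, and Mt1 ranked 5 of 16407 genes by p. DESeq2's Wald test on the same counts gave -0.47 with an adjusted p of 0.000476, so this call depended on the tool. CP2 mice differed from NTG mice by 0.20 ± 0.095 (log2, SE), with an edgeR adjusted p of 0.274.

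Mt2 (ENSMUSG00000031762, chr8:94172618-94173567, plus strand) had 75.1, 72.2, 69.2 and 57.9 CPM in NTG mice. It had 108, 117, 112, 140 and 142 CPM in vehicle mice and 85.5, 90.4, 91.4, 79.9 and 75.3 CPM in the CP2 group. The 3 groups did not overlap, although the highest NTG mouse and the lowest CP2 mouse lay side by side. Means were 68.6 ± 7.54 (SD, n = 4), 124 ± 16.3 (SD, n = 5) and 84.5 ± 6.89 (SD, n = 5). APP/PS1 mice were 0.86 ± 0.11 higher than NTG mice on the log2 scale, with an edgeR adjusted p of 0.00149. The CP2 group differed from the vehicle group by -0.55 ± 0.090 (log2, SE), with a 95% interval of -0.75 to -0.36 and an edgeR adjusted p of 0.511, and Mt2 ranked 2 of 16407 genes by p. This difference passed with DESeq2, at an adjusted p of 7.07e-05, and in edgeR with the ribosomal RNA share of each library as a covariate, at a log2 difference of -0.69 and an adjusted p of 0.0459. Against NTG mice, CP2 mice were 0.31 ± 0.081 higher, with an edgeR adjusted p of 0.0467. That call was lost in 7 of 9 fits without 1 mouse.

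Mt3 (ENSMUSG00000031760, chr8:94152607-94154148, plus strand) had 223, 218, 218 and 218 CPM in NTG mice. It had 224, 247, 224, 250 and 262 CPM in vehicle mice and 222, 236, 211, 220 and 179 CPM in CP2 mice. The vehicle mice lay just above the NTG mice without overlap, while the CP2 mice lay on both sides of them. The log2 difference between APP/PS1 and NTG mice was 0.15 ± 0.059 (SE), with an edgeR adjusted p of 0.204. Between CP2 and vehicle mice it was -0.17 ± 0.074 (SE), with an edgeR adjusted p of 0.744. The 95% intervals of the APP/PS1 difference were 0.018 to 0.28 for Mt3, 0.49 to 0.85 for Mt1 and 0.61 to 1.11 for Mt2.

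Microglial markers and reactive astrocyte genes were higher in APP/PS1 than in NTG mice, as Mt1 and Mt2 were, and the sums of general astrocyte markers were lower. All 11 microglial markers were higher in APP/PS1 than in NTG mice at an adjusted p under 0.05, with a summed level of 449 to 468 CPM in NTG, 840 to 1251 in vehicle and 733 to 1067 in CP2 mice. Of 10 genes of reactive astrocytes, 7 passed the filter and all 7 were higher, with sums of 482 to 743, 1395 to 3403 and 1632 to 2768 CPM. The sums of 12 general astrocyte markers went the other way, at 5642 to 6171, 4853 to 5449 and 4901 to 5326 CPM, and 2 of the 12 passed as lower in APP/PS1 mice. Of the 12, 8 had a negative and 4 a positive log2 difference between APP/PS1 and NTG mice. The sums lean on Slc1a2, with a mean of 3173 CPM in NTG and 2375 CPM in vehicle mice. None of these markers was at 0 in a group. Between CP2 and vehicle mice all 11 microglial markers and all 7 reactive astrocyte genes tested had a negative log2 difference, and 0 of them passed at an adjusted p under 0.05. The sums of both lists overlapped between these groups. The part of these cells in the levels of Mt1 and Mt2 was not tested. The share of ribosomal RNA-like rows in the counts also differed, at 4.72% to 7.50% in NTG, 2.40% to 5.51% in vehicle and 4.49% to 7.40% in CP2 mice, with mouse 16 the lowest. With this share as a covariate, the log2 differences between APP/PS1 and NTG mice were 0.64 for Mt1 and 1.04 for Mt2, with edgeR adjusted p-values of 0.00852 and 0.00073, and between CP2 and vehicle mice -0.48 and -0.69, with adjusted p-values of 0.952 and 0.0459.

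**Figure D3:**
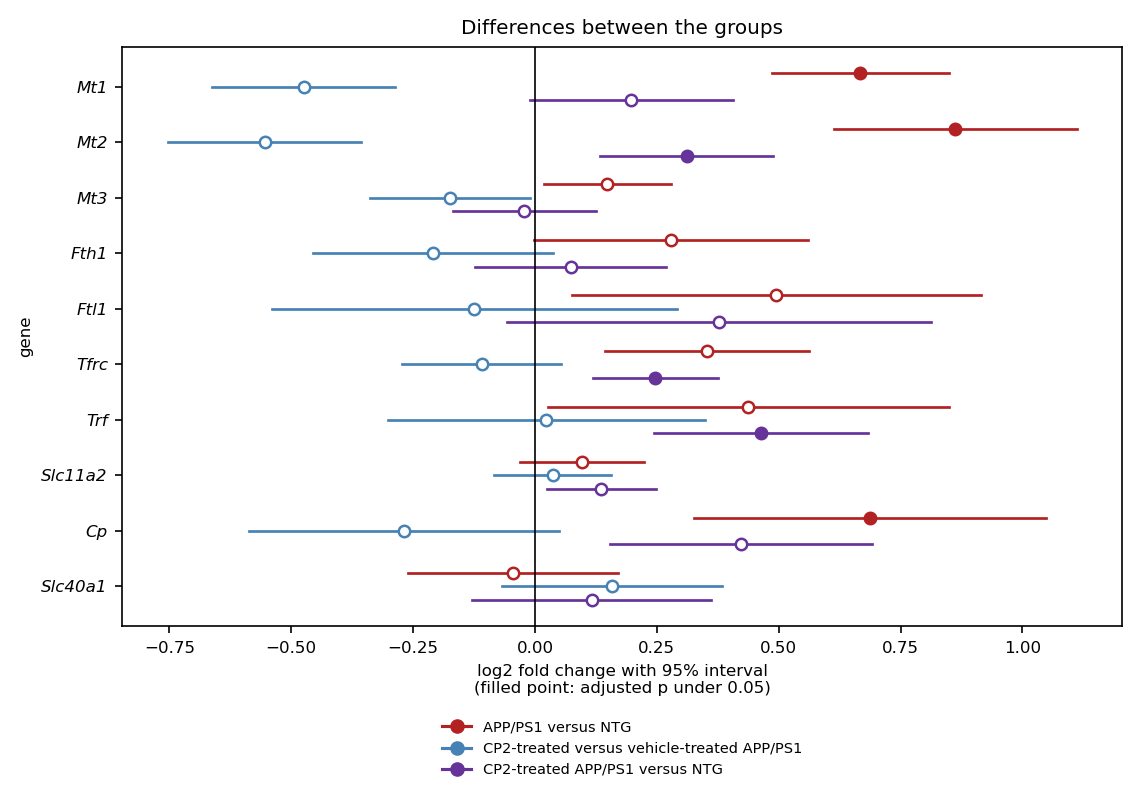
Log2 fold change of each gene in the 3 comparisons on the x axis, with 1 row per gene on the y axis. Lines are 95% intervals from edgeR's quasi-likelihood fit and filled points have an adjusted p under 0.05. Mt1, Mt2 and Cp are filled for APP/PS1 against NTG mice, no gene is filled for CP2 against vehicle, and Mt2, Tfrc and Trf are filled for CP2 against NTG mice.

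As single rows, the ferritin chains did not pass the test in any comparison, and the light chain was hard to count. Fth1 (ENSMUSG00000024661, chr19:9982703-9985092, plus strand), the chain that oxidises iron, had 1459, 1204, 1178 and 1190 CPM in NTG mice. It had 1130, 1586, 1612, 1760 and 1499 CPM in vehicle and 1399, 1501, 1250, 1177 and 1234 CPM in CP2 mice. All groups overlapped, since NTG mouse 7 lay well above the other NTG mice and APP/PS1 mouse 16 below them. The log2 difference between APP/PS1 and NTG mice was 0.28 ± 0.13 (SE), with an edgeR adjusted p of 0.271. It was 0.37 with an adjusted p of 0.0262 without mouse 16, the only 1 of 9 fits without 1 mouse to pass. Over these 9 fits the edgeR adjusted p reached 0.477. The CP2 mice differed from the vehicle mice by -0.21 ± 0.11 (log2, SE), with a 95% interval of -0.46 to 0.036 and an adjusted p of 0.749.

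Ftl1 (ENSMUSG00000050708, chr7:45457944-45459884, minus strand), the light chain of ferritin, had 69.7, 102, 63.5 and 99.3 CPM in NTG mice. It had 146, 144, 93.9, 109 and 94.0 CPM in vehicle mice and 139, 94.8, 118, 118 and 69.1 CPM in CP2 mice. Each group was widely spread and all groups overlapped. The log2 difference between APP/PS1 and NTG mice was 0.50 ± 0.19 (SE), with an edgeR adjusted p of 0.185. Ftl1 has near-identical copies elsewhere in the genome, so its reads can be divided between rows. The row Gm10116 held 1527 to 5202 counts per mouse, Ftl2 0 to 470 and Gm20746 0 to 236. With the 4 rows summed, a step chosen after seeing the data, the log2 difference between APP/PS1 and NTG mice was 0.55 ± 0.089 (SE), with an edgeR adjusted p of 0.00506. Summed, CP2 mice differed from vehicle ones by -0.20 ± 0.11 (adjusted p = 0.749) and from NTG mice by 0.35 ± 0.11 (adjusted p = 0.0956). The Ftl1 row also contains a miRNA row, Gm22133, of 109 bases.

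**Figure D4:**
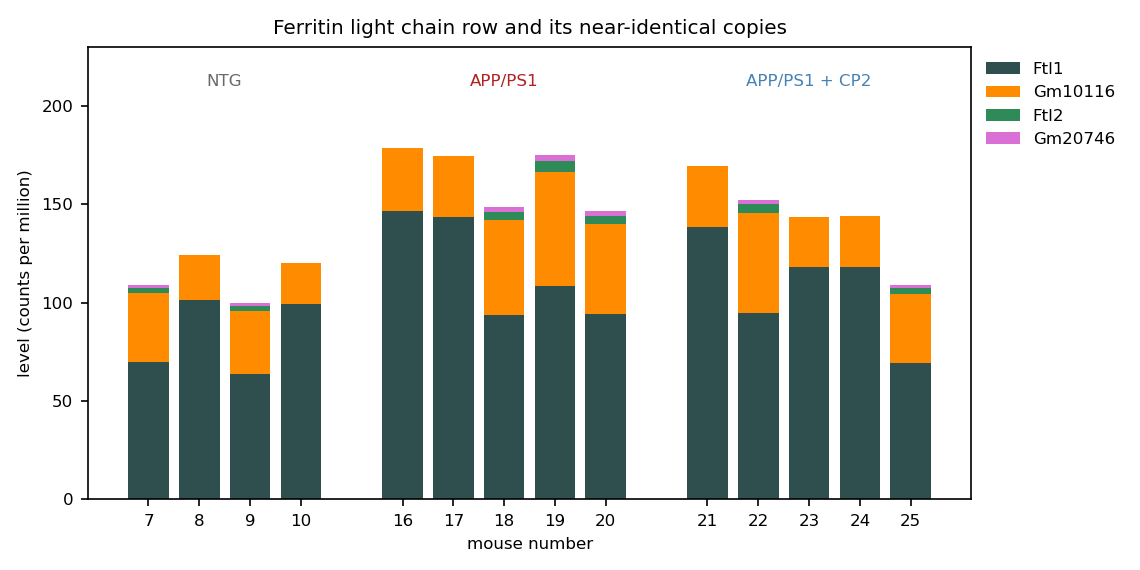
Level of Ftl1 and of 3 near-identical copies in each mouse, stacked, in CPM on the y axis from 0, with mouse numbers on the x axis in their groups. Mice 7, 9, 18, 19, 20, 22 and 25 have over 1 CPM of Ftl2 and Gm20746, and within each group they have less Ftl1 and more Gm10116 than the others, a split noticed after the values were seen.

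The uptake genes Tfrc and Trf were higher in CP2 than in NTG mice. Tfrc (ENSMUSG00000022797, chr16:32608920-32632794, plus strand), the receptor that takes up iron-loaded transferrin, had 103, 98.1, 87.7 and 88.9 CPM in NTG mice. It had 97.9, 117, 132, 130 and 123 CPM in vehicle and 111, 113, 118, 104 and 112 CPM in CP2 mice. Every mouse of the vehicle and CP2 groups but mouse 16 lay above the NTG mice, and the vehicle and CP2 mice overlapped. The log2 difference from NTG was 0.35 ± 0.094 (SE) in vehicle mice, with an edgeR adjusted p of 0.0581. It was 0.25 ± 0.058 (SE) in CP2 mice, with an adjusted p of 0.0304. One is past the threshold and the other is not, but the difference between CP2 and vehicle mice was -0.11 ± 0.074, with a 95% interval of -0.27 to 0.054 and an adjusted p of 0.781. The vehicle difference from NTG also passed with DESeq2 (adjusted p = 0.0056), in 1 edgeR fit over all 3 groups (0.0148), with limma-voom (0.00465) and without mouse 16 (0.00326). No other of the 9 fits without 1 mouse passed for this difference, and their edgeR adjusted p reached 0.174. The CP2 call was lost in 7 of 9 fits without 1 mouse. Tfrc is also rich in brain endothelium, where 11 markers summed to 315 to 331 CPM in NTG, 332 to 438 in vehicle and 352 to 393 in CP2 mice. Of these markers 1 was higher in vehicle and 5 in CP2 mice than in NTG mice at an adjusted p under 0.05, none was at 0 in a group, and their part in the Tfrc level was not tested.

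Trf (ENSMUSG00000032554, chr9:103204001-103230444, minus strand), transferrin itself, had 431, 353, 316 and 303 CPM in NTG mice. It had 298, 438, 555, 560 and 510 CPM in vehicle and 489, 490, 432, 526 and 460 CPM in CP2 mice. The CP2 mice lay above the NTG mice without overlap but next to NTG mouse 7, while among vehicle mice mouse 16 lay below every NTG mouse and the other 4 above them all. In RPKM the CP2 and NTG mice overlapped, with a lowest CP2 value of 103 and a highest NTG value of 105. The difference from NTG was 0.46 ± 0.10 (log2, SE) in CP2 mice, with an edgeR adjusted p of 0.0206, which was lost in 5 of 9 fits without 1 mouse. In vehicle mice it was 0.44 ± 0.18 (log2, SE), with an adjusted p of 0.233, and 0.57 with an adjusted p of 0.0163 without mouse 16. That was the only 1 of 9 fits without 1 mouse to pass for vehicle mice, and the edgeR adjusted p of the others reached 0.437. CP2 and vehicle mice differed by 0.023 ± 0.15 (log2, SE), with a 95% interval of -0.30 to 0.35. The sums of 12 oligodendrocyte markers overlapped between the groups, at 5681 to 8166 CPM in NTG, 5132 to 7656 in vehicle and 5869 to 6612 in CP2 mice, and NTG mouse 7, with the most Trf of its group, had the highest sum. Of these 12 markers 1 passed at an adjusted p under 0.05, as higher, in each comparison with NTG, and none was at 0 in a group. The 10 choroid plexus markers summed to 33.6 to 995, 34.6 to 1416 and 205 to 785 CPM, and their part in the Trf level was not tested. The Trf row shares 26307 bases on the same strand with the row Gm20425, where reads were counted on both.

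Slc11a2 (ENSMUSG00000023030, chr15:100387898-100425072, minus strand), which carries iron out of the endosome, had 41.5, 40.5, 39.3 and 43.2 CPM in NTG mice. It had 42.6, 41.3, 41.7, 46.5 and 46.4 CPM in vehicle and 43.4, 43.6, 43.8, 44.4 and 48.9 CPM in CP2 mice. The spread within a group was small, and the CP2 mice did not overlap the NTG mice in CPM, but did in RPKM, where the lowest CP2 value was 5.48 and the highest NTG value 5.64. The log2 difference from NTG was 0.096 ± 0.057 (SE) in vehicle mice (adjusted p = 0.426, edgeR) and 0.14 ± 0.051 (SE) in CP2 mice (adjusted p = 0.16). CP2 and vehicle mice differed by 0.036, with a 95% interval of -0.083 to 0.16. The Slc11a2 row overlaps Gm5475 on the opposite strand by 2926 bases.

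Of the release genes, Cp was higher in APP/PS1 than in NTG mice and Slc40a1 did not pass the test in any comparison. Cp (ENSMUSG00000003617, chr3:19957054-20009145, plus strand), the ferroxidase ceruloplasmin, had 23.6, 23.1, 19.4 and 17.2 CPM in NTG mice. It had 24.3, 35.7, 42.1, 36.0 and 28.5 CPM in vehicle and 31.5, 31.3, 23.5, 23.9 and 27.8 CPM in CP2 mice. The vehicle mice lay above the NTG mice, with mouse 16 next to them, and the CP2 mice overlapped both other groups. The log2 difference between APP/PS1 and NTG mice was 0.69 ± 0.16 (SE), a 1.61-fold difference, with an edgeR adjusted p of 0.0359. This call was lost in 7 of 9 fits without 1 mouse, with log2 differences of 0.59 to 0.78 and adjusted p-values of 0.00444 to 0.116, and with the ribosomal RNA share as a covariate (0.82, adjusted p = 0.0619). CP2 mice differed from vehicle ones by -0.27 ± 0.14 (log2, SE), with a 95% interval of -0.59 to 0.049, and from NTG mice by 0.42 ± 0.12, with an adjusted p of 0.0721. The Cp row overlaps Hps3 on the opposite strand by 13201 bases, and the library kit did not mark strand.

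Slc40a1 (ENSMUSG00000025993, chr1:45908068-45926523, minus strand), the iron exporter ferroportin, had 8.97, 11.3, 10.3 and 9.28 CPM in NTG mice. It had 9.11, 8.95, 10.2, 10.8 and 8.93 CPM in vehicle and 10.3, 11.8, 11.3, 11.9 and 8.28 CPM in CP2 mice. All groups overlapped. The log2 difference between APP/PS1 and NTG mice was -0.046 ± 0.097 (SE), with a 95% interval of -0.26 to 0.17 and an edgeR adjusted p of 0.852. Between CP2 and vehicle mice it was 0.16, with an interval of -0.068 to 0.38. The copper-containing ferroxidase of the same step, Heph (hephaestin), had a log2 difference from NTG of -0.41 ± 0.15 in vehicle mice (edgeR adjusted p = 0.16). Heph was lower in CP2 than in NTG mice by 0.54 ± 0.082 on the log2 scale (edgeR adjusted p = 0.00276). No gene of the iron export list passed between the CP2 and vehicle groups.

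The other genes were read from 11 lists, of 162 genes beside the members. Most lists are of metal handling. The others hold glucocorticoid-induced genes, the IL-6 and STAT3 acute phase response and ferroptosis. Of 146 tested in APP/PS1 against NTG mice, 14 were higher and 1 lower at an adjusted p under 0.05, against 4.34% higher and 1.34% lower of all genes, and their median log2 difference was 0.025. Of the higher genes, Osmr, Serpina3n, Socs3, Cebpd, Stat3, Plin4, Nfe2l2 and Alox5, described below, are only in those other lists, as is the lower gene, Hsd11b1. The counts over all lists are thus not counts of metal handling genes alone. In the list of iron uptake and traffic, with 16 genes tested including 3 members, 2 were higher. These were Slc11a1 (NRAMP1), the metal transporter of phagosomes, at 2.90 and 10.9 mean CPM in NTG and APP/PS1 mice (log2 1.92 ± 0.22, edgeR adjusted p = 0.000696), and Cybrd1, a ferrireductase, at 3.67 and 13.8 CPM (1.91 ± 0.28, adjusted p = 0.00267). The microglial sums given above differed between the same groups, and their part in Slc11a1 was not tested. Hmox1, which breaks down haem and frees its iron, was higher at 9.92 against 4.59 CPM (1.12 ± 0.15, adjusted p = 0.00174), the only one of 20 haem genes tested to pass. Of 9 blood markers 5 were tested and all 5 had a positive log2 difference, with Hba-a1 (1.77 ± 0.29, adjusted p = 0.0057) and Hba-a2 (1.83 ± 0.40, adjusted p = 0.0233) passing. The blood markers summed to 82.7 to 152 CPM in NTG, 114 to 475 in vehicle and 138 to 443 in CP2 mice, none of the 7 in the table was at 0 in a group, and their part in Hmox1 was not tested. Cd163, the receptor for haemoglobin bound to haptoglobin, had a log2 difference of 0.77 ± 0.25 (adjusted p = 0.117). In the zinc list, of 22 tested, Slc30a7, a zinc transporter of the Golgi, was higher by 0.26 ± 0.058 (adjusted p = 0.0288) beside Mt1 and Mt2. Slc30a1, the zinc exporter that MTF1 also induces, had a log2 difference of 0.14 ± 0.083 (adjusted p = 0.413), and Mtf1 itself of -0.043 ± 0.046 (adjusted p = 0.694).

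With the Ftl1 row counted without its copies, none of 6 genes of ferritin storage and turnover passed. Among them was Ncoa4, the receptor that takes ferritin to the lysosome (-0.098 ± 0.066, edgeR adjusted p = 0.483). In the iron export list Cp was the 1 gene of 9 to pass, and the hepcidin inducer Bmp6 had a log2 difference of 0.42 ± 0.15 (adjusted p = 0.148). The iron regulatory proteins Aco1 (0.017 ± 0.053, adjusted p = 0.905) and Ireb2 (-0.058 ± 0.043, adjusted p = 0.533) did not pass, and the prolyl hydroxylase Egln3 was the 1 of 9 in that list to do so, higher by 0.50 ± 0.095 (adjusted p = 0.0132), while Hif1a had a log2 difference of 0.22 ± 0.083 (adjusted p = 0.185). None of 24 genes of iron-sulphur cluster assembly passed, and the first by p were Mms19 (0.18 ± 0.056, adjusted p = 0.0977) and Isca2 (-0.18 ± 0.066, adjusted p = 0.172). Of 13 copper genes Slc31a2, a copper transporter, was higher by 0.36 ± 0.079 (adjusted p = 0.0271), and Cox11, a copper chaperone of complex IV, had a log2 difference of -0.15 ± 0.058 (adjusted p = 0.194).

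Genes of signals that are known to induce Mt1 and Mt2 were read as separate lists. Of 11 genes of the IL-6 and STAT3 acute phase response, 5 were higher in APP/PS1 than in NTG mice and none lower, with a median log2 difference of 0.67. These were the oncostatin M receptor Osmr (2.81 ± 0.18, edgeR adjusted p = 8.1e-05), the protease inhibitor Serpina3n (2.17 ± 0.34, adjusted p = 0.00408), Socs3 (1.12 ± 0.19, adjusted p = 0.00672), Cebpd (0.99 ± 0.20, adjusted p = 0.018) and Stat3 (0.71 ± 0.089, adjusted p = 0.0012). Osmr and Serpina3n are also in the list of reactive astrocytes. Of 16 glucocorticoid-induced genes, Plin4 was higher (1.73 ± 0.38, adjusted p = 0.025) and Hsd11b1, which regenerates active glucocorticoid, fell by 1.09 ± 0.21 on the log2 scale (adjusted p = 0.0124), and the median was -0.0022. Of 18 ferroptosis genes, Hmox1, Nfe2l2 (0.65 ± 0.097, adjusted p = 0.00317) and Alox5 (1.38 ± 0.29, adjusted p = 0.019) were higher.

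Between the CP2 and vehicle groups, 0 of the 146 list genes tested passed at an adjusted p under 0.05 with edgeR and 0 with DESeq2. At an unadjusted p under 0.05, 1 was higher and 8 were lower, where 2.88% and 3.66% of all genes were. Among them Plin4, at 26.3 and 10.01 mean CPM, had a log2 difference of -1.39 ± 0.34, Osmr of -0.52 ± 0.22 and Serpina3n of -0.63 ± 0.28, each with an edgeR adjusted p of 0.744. Slc11a1 (-0.099 ± 0.23), Cybrd1 (-0.10 ± 0.29) and Hmox1 (-0.30 ± 0.15) had adjusted p-values of 0.937, 0.949 and 0.747. In CP2 against NTG mice, 11 of 145 list genes were higher and 3 lower, against 4.56% and 1.46% of all genes. Slc11a1 (1.83 ± 0.23, adjusted p = 0.00119), Cybrd1 (1.81 ± 0.28, adjusted p = 0.00295), Hmox1 (0.82 ± 0.11, adjusted p = 0.00156), Slc30a7 (0.21 ± 0.045, adjusted p = 0.018) and Hif1a (0.22 ± 0.049, adjusted p = 0.0263) were among the higher genes. Osmr, Stat3, Serpina3n, Cebpd and Nfe2l2 also passed, with log2 differences of 2.30, 0.63, 1.54, 0.59 and 0.52, as did the IL-6 receptor Il6ra (0.37 ± 0.086, adjusted p = 0.0309). Like Hsd11b1, these genes are only in the lists that are not of metal handling. The lower ones were Heph, Hsd11b1 (fell by 0.81 ± 0.13, adjusted p = 0.00434) and Isca1, an iron-sulphur assembly factor (fell by 0.14 ± 0.036, adjusted p = 0.0443).

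Within the groups, it was asked whether members varied together from mouse to mouse. Over the 45 pairs of members, the deviations of log2 CPM from the group means in 14 mice gave a positive Pearson r in 35 pairs, and 0 pairs passed an adjusted p under 0.05 in a permutation test. The highest were Tfrc with Trf (r = 0.83, rho = 0.68, permutation adjusted p = 0.0934 and 0.16) and Fth1 with Tfrc (r = 0.81, rho = 0.76, permutation adjusted p = 0.0934 and 0.147). Without the 2 mice farthest from the median, of which 1 was mouse 16 in both cases, r was 0.58 and 0.57. Mt1 with Mt2 gave r = 0.57 and rho = 0.62 (permutation adjusted p = 0.192 and 0.16) and 0.51 without mice 22 and 7.

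By the same measure, the genes most like each member were looked for among 16520 genes, as a description. Mt2 was most like Tlr9 (r = 0.90), Cd84 (0.90) and P2ry13 (0.88), and Mt1 most like Romo1 (0.92), Tmem208 (0.92) and Rpl35a (0.91). Fth1 was nearest to Apod (0.97), Fxyd1 (0.96) and Npc2 (0.96), Tfrc to Fibin (0.95), Fam199x (0.94) and Fuca2 (0.93), and Cp to St3gal6 (0.95), Col3a1 (0.93) and Asgr1 (0.93). For Trf the first was the overlapping row Gm20425 (0.9997), followed by the proteoglycan Dcn (0.96) and Rnf141 (0.94), and for Ftl1 the miRNA row inside it (0.99), with Invs (0.91) also among the nearest. Mt3 was nearest to Kansl1l (0.90), Slc40a1 to Zfp449 (0.88) and Slc11a2 to a row with no gene name (0.85). These mice share library and tissue differences within their groups, and no shared function is implied. Each r is among the highest of 16520 over 14 mice, and how high r would rise by chance was not tested.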

How the data were processed

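RNA from 14 brains was made into unstranded libraries with the TruSeq RNA v2 kit and sequenced as paired 101-base reads on a HiSeq 4000. The authors aligned reads to mm10 with TopHat2 within MAP-RSeq and counted them per Ensembl gene with featureCounts, keeping reads on every gene they overlap, and deposited the counts together with RPKM values, whose library total is not given in the sources used here. All samples were grouped by their titles. The deposited counts were tested with edgeR 4.0.16 in R 4.3.3 (TMM factors, quasi-likelihood F-test) on the 2 groups of each comparison alone. Genes were kept at over 1 CPM in every mouse of at least 1 group, and p-values were adjusted over all genes tested at a threshold of 0.05. RPKM was used to order levels between genes and, beside CPM, to describe ratios of group means and the overlap of mice, without a test. The sources used here do not say how mice were batched, so p-values measure the spread between these mice. On simulated counts, 200 genes with a mean count over 200 were changed by a log2 size of 1. Of these, 95.5% were recovered in APP/PS1 against NTG mice, 95.5% in CP2 against vehicle and 97% in CP2 against NTG mice. The fits held 16417, 16407 and 16416 genes, and 3.05%, 3.05% and 5.83% of the genes called had not been changed. Every member differed by less than that size in the main edgeR fits, so these shares do not give the power for the members. No 2 replicates agreed within sampling noise: the lowest chi-square per degree of freedom of 26 pairs was 9.87.

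Alternatives were DESeq2 1.42.0, other scaling factors, other filters, 1 fit over all groups, limma 3.58.1 (voom with quality weights), the share of ribosomal RNA-like rows (2.40% to 7.50% of counts) as a covariate, and leaving out each mouse. Correlations used 100000 permutations of mice within groups. The members and gene lists were chosen with earlier results of these data known. The named genes are the members, list genes with an adjusted p under 0.05 in any comparison, up to 2 genes per list with the smallest p in APP/PS1 against NTG mice, the 3 genes most like each member, and rows that overlap or copy a member. One gene that this rule names is not reported here. Further list genes with a known role beside the members (Slc30a1, Mtf1, Ncoa4, Aco1, Ireb2) were named after their values were seen. Promoters are from RefSeq (GRCm38.p6) and 7 of 10 members matched. UTRs and positions are from GENCODE M21 (GRCm38), and the search for iron responsive elements and the sum over the Ftl1 copies were added after the data were seen.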

Additional observations from a re-analysis of the deposited data

Results flagged for a closer look

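In 3 of the 30 sets formed by the 10 genes in the 3 groups, 1 mouse lay far from the others of its group by Dixon's test at the 95% level, which chance does in about 1 in 20 sets. NTG mouse 7 had 223 CPM of Mt3, where the nearest NTG mouse had 218, a small gap in a group with little spread. The same mouse had 1459 CPM of Fth1, against 1204 in the nearest NTG mouse. Mouse 25 of the CP2 group had 48.9 CPM of Slc11a2, against 44.4 in the nearest. Mouse 7 also had the highest Mt1, Mt2, Tfrc, Trf and Cp of the NTG mice. Its sums of oligodendrocyte markers (8166 CPM), reactive astrocyte genes (743 CPM, against 482 to 509 in the other NTG mice), microglial markers (468 CPM) and blood markers (152 CPM) were the highest of its group, and their part in these values was not tested.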

How the results depend on the processing

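Mt1 and Mt2 stayed higher in APP/PS1 than in NTG mice, past the threshold, in all 8 alternatives and all 9 fits without 1 mouse, with log2 differences of 0.63 to 0.75 for Mt1 and 0.80 to 1.04 for Mt2. The members called there numbered 3 in the main fit, 3 to 6 over the alternatives, with 6 under limma-voom, and 2 to 6 without 1 mouse. Between the CP2 and vehicle groups they numbered 0, 2 with DESeq2, 1 with the ribosomal RNA covariate, and 0 in each of 10 fits without 1 mouse. In CP2 against NTG mice they numbered 3 in the main fit and 0 to 4 over the alternatives, with 0 in 1 fit over all 3 groups and 4 with DESeq2. Without 1 mouse they numbered 0 to 3, with 0 called without mouse 8, 9, 10 or 21 and 1 without mouse 22 or 24. The Mt2 call there was also lost with RLE and upper-quartile factors (adjusted p = 0.0528 in both). List genes called in that comparison numbered 9 to 15 without 1 mouse, with 9 without mouse 8, 9 or 21, and 11 to 22 in APP/PS1 against NTG mice. Over all genes, DESeq2 called 1667, 23 and 1670 in the 3 comparisons, limma-voom called 1563 in the first, the ribosomal RNA covariate gave 2 in the second, and fits without 1 mouse gave 578 to 1474, 0 to 1 and 572 to 1123. Small differences that changed sign were Slc40a1 in APP/PS1 against NTG mice (0.075 with the ribosomal RNA covariate, -0.097 to 0.021 without 1 mouse), and, between the CP2 and vehicle groups, Trf (-0.037 with limma-voom, -0.14 with the covariate, -0.10 to 0.096 without 1 mouse), Ftl1 (0.078 with the covariate) and Slc11a2 (-0.0036 to 0.063 without 1 mouse). Mt3 in CP2 against NTG mice was -0.061 to 0.032 without 1 mouse. The cause was not tested. RPKM in place of CPM turned the ratio of mean levels of Slc40a1 in APP/PS1 to NTG mice from 0.963 to 1.01 and of Mt3 in CP2 to NTG mice from 0.977 to 1.02, neither past a test, and let the CP2 and NTG mice overlap for Trf and Slc11a2. The other 18 ratios kept their direction. Another prior count left the number of correlated pairs at 0. No paired analysis was possible because the groups share no replicate numbers. With 4 or 5 mice per group, the counts per gene were high enough that the spread between mice, not depth, limits these values.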
